A study of Mus musculus with 6 samples.

Results

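The genes described here are 33 genes of the heart's extracellular matrix other than collagens, chosen by name: matrix glycoproteins, proteoglycans, crosslinking enzymes, proteases with their inhibitors, and the transforming growth factor beta (TGF-beta) ligands with their binding proteins. Each was matched by Ensembl identifier to 1 of the 20254 genes of the table, and 32 of the 33 reached the minimum signal for testing. They were followed in RNA sequencing of whole hearts of C57BL/6 mice, 3 labelled Trdn-as KO and 3 labelled WT. In each genotype, libraries 1 and 2 came from mice aged 14 months and library 3 from a mouse aged 5 months, so every comparison at 5 months sets 1 KO heart against 1 WT heart. The libraries are written KO-1 to KO-3 and WT-1 to WT-3. By its name, Trdn-as is an antisense RNA of Trdn; triadin, made from Trdn, belongs to the calcium release complex of muscle; the sources used here do not give how the knockout was made. The labels do not say whether each library is a separate animal, so p-values measure the spread between these libraries.

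The values are normalized signals per gene as deposited, with no unit of molecules; differences are given in log2 of the value plus 1, with the standard error (SE) of the limma model. A gene was tested when it had a signal of 10 or more in at least 3 libraries (13823 genes), and called at a Benjamini-Hochberg adjusted p under 0.05. Trdn had signals of 3429, 3459.7 and 5606 in KO-1, KO-2 and KO-3, against 5702, 5599.8 and 9104 in WT-1, WT-2 and WT-3 (−0.71 log2, limma adjusted p = 0.261), and Trdn-as itself was not analysed here. Total signal, in 1e6, ran from 19.8 to 21.6 in KO and from 19.9 to 23.5 in WT. Mitochondrially encoded genes took 44.3 to 49.4% of it at 14 months and 41.6% in KO and 40.0% in WT at 5 months. Genes of the Y chromosome summed to 273 in KO-2 and 213 in WT-2, against 2652 or more in the other KO libraries and 3046 or more in the other WT libraries. The 5-month libraries stood apart from those of 14 months: Spearman correlations over genes were 0.978 to 0.980 among libraries of 14 months and 0.954 to 0.959 between the ages. KO-3 and WT-3 correlated at 0.968, so the 5-month libraries also differed more from each other than those of 14 months. Nothing in the labels says when each heart was processed, so age and any batch of processing cannot be told apart.

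The cardiac matrix is a scaffold of collagen, elastic fibres, glycoproteins and proteoglycans, laid down mainly by fibroblasts and also by smooth muscle and endothelial cells. Lysyl oxidases crosslink its fibres, metalloproteinases such as Mmp2 and Mmp14 cut its proteins, and the Timp proteins inhibit those proteases. TGF-beta is secreted in a latent complex that latent TGF-beta binding proteins anchor to fibrillin microfibrils; once released it stimulates fibroblasts to make matrix.

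Per kilobase of merged exons, an approximate scale for comparing genes, decorin (Dcn) had the highest mean level over the 6 libraries at 1719.9 per kb. Sparc followed at 1123, Ltbp4 at 799, biglycan (Bgn) at 741, Timp3 at 667, lumican (Lum) at 599.6 and Timp2 at 548 per kb. The other 26 genes lay at or below 290.2 per kb, the level of Fbln1. At the bottom stood tenascin C (Tnc) at 3.27 and Cthrc1 at 2.31 per kb. Cthrc1, a secreted protein of activated fibroblasts, was the gene below the testing minimum, with signals of 5.86 and 1.64 in KO and 3.39 and 1.10 in WT at 14 months, and 1.97 in KO and 8.09 in WT at 5 months. Summed over all 33 genes, the signal was 53266 and 47246 in KO and 54315 and 53379 in WT at 14 months, and 25328 in KO and 37125 in WT at 5 months. The 5-month KO heart therefore had the lowest summed signal and the 5-month WT heart the next lowest.

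**Figure D1:**
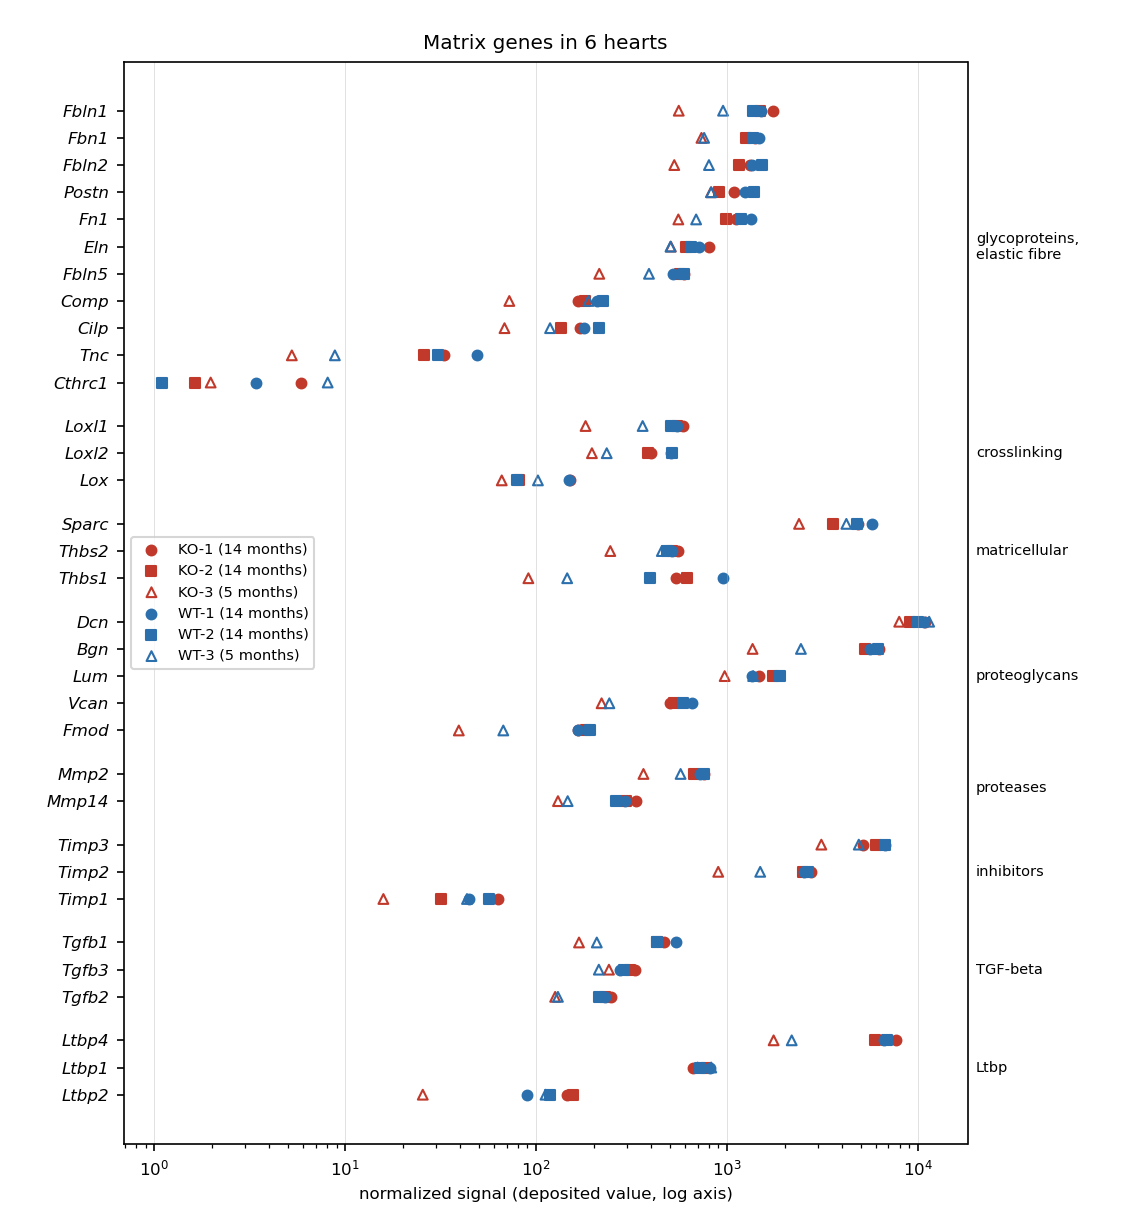
Normalized signal (log axis) of the 33 matrix genes in each of 6 hearts, with filled symbols for 14 months, open triangles for 5 months, KO in red and WT in blue. For most genes the open triangles lie left of the filled symbols, while Dcn and Ltbp1 show no such gap.

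These genes differed mainly with age: fibronectin, fibrillin 1, biglycan, versican, Ltbp4 and the TGF-beta ligands were all higher at 14 months. Of the 32 tested, 25 were higher at 14 months than at 5 months by limma, against 17.7% of all genes tested, and 0 were lower, against 16%. The difference was above 0 in 31, against 51.5% of all genes. Their median difference, 14 minus 5 months, was 0.91 log2, with a median of 0.022 over all genes tested. In 24 of the 32 all 4 libraries of 14 months lay above both of 5 months, as in 25.7% of all genes. The difference was at least 1 log2 in 13 of the called genes, against 6.47% of all genes. Within KO alone the median was 1.18 log2 and within WT alone 0.63 log2, with 1 heart of 5 months in each. Scaling to the total of nuclear genes moved the median of all genes by 0.20 log2; relative to all genes the matrix genes then stood at 0.89, against 0.88 as deposited. Within WT alone the same scaling moved all genes by 0.33, and the matrix genes then stood 0.62 log2 above them. In bulk tissue, more matrix-making cells and more RNA per cell cannot be told apart.

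**Figure D2:**
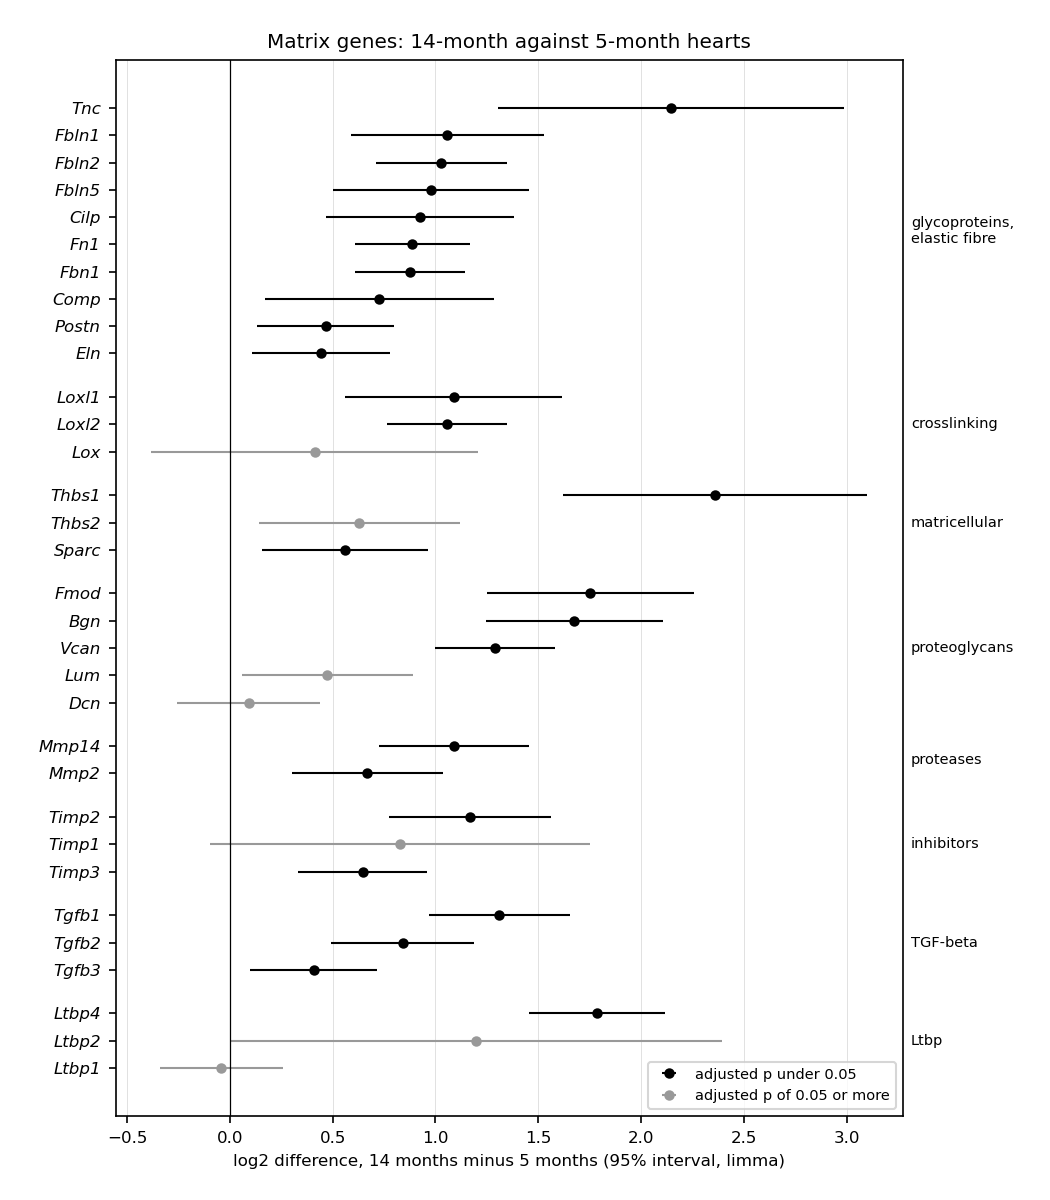
Log2 difference, 14 months minus 5 months, with its 95% interval from limma, for the 32 matrix genes tested, grouped by role. Black points are the 25 genes called; Thbs1 (2.36) and Tnc (2.14) lie farthest right and Ltbp1 (−0.042) is the gene left of 0.

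Among the structural glycoproteins, all 10 tested were higher at 14 months, by 0.44 to 2.14 log2. Fibronectin (Fn1; chromosome 1, 71585520 to 71653200, minus strand, mm10), the adhesive glycoprotein that cells bind through integrins, had signals of 1111 and 982 in KO and 1331 and 1182 in WT at 14 months, and 555 in KO and 688 in WT at 5 months. The ages did not overlap, and the difference was 0.89 log2 (SE 0.12, limma adjusted p = 0.00170). Fibrillin 1 (Fbn1), which forms the microfibrils on which elastin is laid, had 1402 and 1252 in KO and 1470.1 and 1365 in WT at 14 months, and 734 in KO and 758 in WT at 5 months. KO and WT were close at both ages, and the age difference was 0.88 log2 (SE 0.12, limma adjusted p = 0.00150). Fibulin 2 (Fbln2), which bridges microfibrils and basement membranes, had 1320.02 and 1152 in KO and 1355 and 1525 in WT at 14 months, and 529 in KO and 803 in WT at 5 months, a difference of 1.03 log2 (SE 0.14, limma adjusted p = 0.00163). Its KO signals lay below the WT signals at both ages. Fbln1 and Fbln5, fibulins that bind elastin and other matrix proteins, differed by 1.06 (SE 0.20, adjusted p = 0.00646 by limma) and 0.98 (SE 0.21, adjusted p = 0.00949 by limma); without KO-3 they were still called, at 0.59 and 0.51 log2. Elastin (Eln) itself, the recoil protein of arteries and valves, had the smallest difference of the group, 0.44 (SE 0.14, adjusted p = 0.0475 by limma). Periostin (Postn), a product of activated fibroblasts, was next at 0.47 (SE 0.14, adjusted p = 0.0392 by limma). The remaining 3 were Tnc, a glycoprotein of remodelling tissue, at 2.14 (SE 0.37, adjusted p = 0.00394 by limma) on signals of 5.25 to 48.9, Cilp, a matrix protein of cartilage that cardiac fibroblasts also make, at 0.92 (SE 0.20, adjusted p = 0.0101 by limma) and Comp, a cartilage and tendon matrix protein, at 0.73 (SE 0.24, adjusted p = 0.0495 by limma). Comp, Eln and Postn were close to the threshold. The call of Comp was lost without any 1 library other than WT-3, with 0.20 log2 without KO-3, that of Eln without any other than KO-2, and that of Postn without any other than KO-2 or KO-3. Cilp lost its call without KO-3, at 0.72 log2.

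Of the crosslinking enzymes, the lysyl oxidase paralogues Loxl1 and Loxl2 were higher at 14 months and Lox was not called. Loxl2 had 398 and 383 in KO and 508 and 514 in WT at 14 months, and 196 in KO and 234 in WT at 5 months, and its age difference was 1.06 log2 (SE 0.13, limma adjusted p = 0.00108). KO lay below WT at both ages. Loxl1, which acts on elastin, had 585 and 547 in KO and 545 and 508 in WT at 14 months, and 181 in KO and 361 in WT at 5 months, with the 5-month KO heart lowest. The difference was 1.09 log2 (SE 0.23, limma adjusted p = 0.00915), and it was 0.54 log2 without KO-3 and 1.64 log2 without WT-3, called in both. Lox, the founding member, had 95% limits of −0.38 to 1.21 log2, and its replicate 1 libraries were above its replicate 2 libraries in both genotypes, at 149.9 and 81.4 in KO and 149 and 79.2 in WT.

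The matricellular proteins act on cells rather than build fibres. Thrombospondin 1 (Thbs1; chromosome 2, 118111876 to 118127133, plus strand), which can release TGF-beta from its latent complex, had 542 and 616 in KO and 952 and 395 in WT at 14 months, and 91.0 in KO and 145 in WT at 5 months. It had the largest age difference of the 32 genes, 2.36 log2 (SE 0.32, limma adjusted p = 0.00166), although the 14-month WT libraries differed more than 2-fold between themselves. Without KO-3 the difference was 2.07 log2 and not called. Thbs2, a thrombospondin that limits matrix breakdown, missed the threshold at 0.63 (SE 0.21, adjusted p = 0.0523 by limma); it was 0.13 log2 without KO-3, and it was called with a minimum of 50, scaled to the nuclear total, by limma-voom, with replicates 1 and 3 alone and without WT-3. Sparc, a collagen-binding glycoprotein, had 4832 and 3583 in KO and 5707 and 4817 in WT at 14 months, and 2381 in KO and 4214 in WT at 5 months. The WT-3 value lay between those of the 14-month KO hearts, so its ages overlapped, and the difference was 0.56 log2 (SE 0.17, limma adjusted p = 0.0404); without KO-3 it was 0.32 log2 and not called, and the call was also lost without KO-1 (0.43), KO-2 (0.62) or WT-1 (0.54).

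The proteoglycans parted into 3 genes that were higher at 14 months and 2 that were not called. Biglycan (Bgn; chromosome X, 73483602 to 73495933, plus strand), a small leucine-rich proteoglycan that binds collagen and TGF-beta, had 6215 and 5296 in KO and 5615 and 6195 in WT at 14 months, and 1359.98 in KO and 2436 in WT at 5 months, a difference of 1.68 log2 (SE 0.19, limma adjusted p = 0.000837). Fibromodulin (Fmod), of the same family, had 165 and 182 in KO and 166 and 192 in WT at 14 months, and 39.3 in KO and 67.2 in WT at 5 months, a difference of 1.75 log2 (SE 0.22, limma adjusted p = 0.00120). In both genes the ages did not overlap, and KO and WT overlapped at 14 months. Versican (Vcan), a large hyaluronan-binding proteoglycan, had 505 and 525 in KO and 656 and 588 in WT at 14 months, and 220.1 in KO and 242 in WT at 5 months, a difference of 1.29 log2 (SE 0.13, limma adjusted p = 0.000568). Its KO signals lay below the WT signals at both ages. The other members of the small leucine-rich family differed from Bgn and Fmod: Dcn had 10904 and 9112 in KO and 10776 and 10043 in WT at 14 months, and 7971 in KO and 11438 in WT at 5 months. The highest Dcn signal was thus in the 5-month WT heart and the lowest in the 5-month KO heart, and the age difference was 0.093 log2 (SE 0.15, limma adjusted p = 0.666), with 95% limits of −0.25 to 0.44. After quantile normalization the age difference of Dcn was 0.41 log2 and called (limma adjusted p = 0.0233). Scaled to the nuclear total it was 0.29 log2 and not called. Lum, which controls collagen fibril spacing, was at 0.47 (SE 0.18, adjusted p = 0.0773 by limma). The Lum difference was 0.23 log2 without KO-3 and 0.72 without WT-3, and it was called without WT-1 or scaled to the nuclear total.

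Both proteases, and 2 of their 3 inhibitors, were higher at 14 months. Mmp14, a membrane-bound protease that activates Mmp2, had 334 and 294 in KO and 292 and 262 in WT at 14 months, and 130.04 in KO and 146 in WT at 5 months, a difference of 1.09 log2 (SE 0.16, limma adjusted p = 0.00217). KO was above WT at 14 months and below it at 5 months. Mmp2, a gelatinase, was at 0.67 (SE 0.16, adjusted p = 0.0148 by limma), a call lost without KO-3, at 0.37 log2. Timp2, which takes part in Mmp2 activation as well as inhibition, had 2739.9 and 2484 in KO and 2518 and 2668 in WT at 14 months, and 899 in KO and 1491 in WT at 5 months, a difference of 1.17 log2 (SE 0.17, limma adjusted p = 0.00226). Timp3, the inhibitor that is bound to matrix, had 5157 and 5995 in KO and 6678 and 6751 in WT at 14 months, and 3116 in KO and 4895 in WT at 5 months, a difference of 0.65 log2 (SE 0.14, limma adjusted p = 0.00925). The Timp3 signals were lower in KO at both ages, whereas those of Timp2 overlapped at 14 months. Timp1 was low and uneven, with 63.1 and 31.7 in KO and 44.6 and 56.9 in WT at 14 months, and 15.8 in KO and 43.4 in WT at 5 months. Its difference of 0.83 (SE 0.40, adjusted p = 0.147 by limma) was not called.

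All 3 TGF-beta ligands were higher at 14 months, in the order Tgfb1, Tgfb2 and Tgfb3. Tgfb1 (chromosome 7, 25687002 to 25705077, plus strand) had 465 and 432 in KO and 539 and 430.1 in WT at 14 months, and 168 in KO and 208 in WT at 5 months, a difference of 1.31 log2 (SE 0.15, limma adjusted p = 0.000889). Tgfb2 was at 0.84 (SE 0.15, adjusted p = 0.00483 by limma) and Tgfb3 at 0.41 (SE 0.13, adjusted p = 0.0480 by limma); the call of Tgfb3 was lost on leaving out any 1 library. Of the proteins that hold latent TGF-beta in the matrix, Ltbp4 (chromosome 7, 27305136 to 27337692, minus strand), which binds latent TGF-beta 1 and is needed for elastic fibres, had 7637 and 5976 in KO and 6606 and 6848 in WT at 14 months, and 1752 in KO and 2179.9 in WT at 5 months. The ages lay far apart in both genotypes, and the difference was 1.79 log2 (SE 0.14, limma adjusted p = 0.000299), the smallest p of the 32 genes. Ltbp1 was level across the ages, from 659.6 to 778 in KO and from 718 to 826 in WT, with a difference of −0.042 log2 (SE 0.13, limma adjusted p = 0.825). Ltbp2, which binds fibrillin but not TGF-beta, had 144 and 156 in KO and 89.1 and 118 in WT at 14 months, and 25.5 in KO and 112 in WT at 5 months. Its 5-month KO signal was far below the other 5 libraries, and its age difference of 1.20 log2 (SE 0.52, limma adjusted p = 0.112) was not called. That difference was 2.51 log2 without WT-3 and −0.12 without KO-3.

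**Figure D3:**
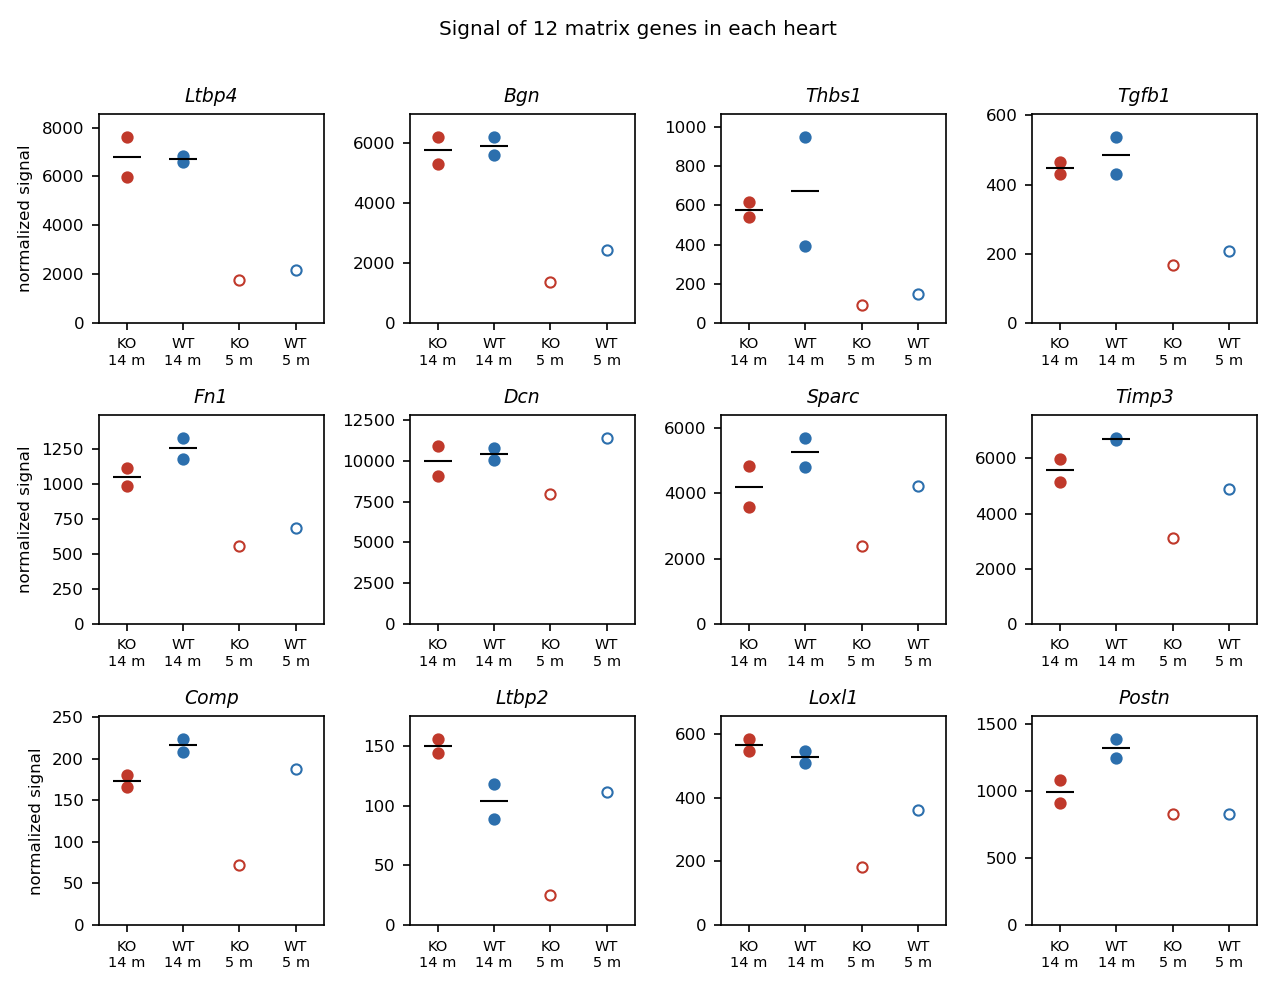
Normalized signal (linear axes from 0) of 12 matrix genes in KO and WT hearts at 14 months (m; 2 each, bar at the mean) and 5 months (1 each). Ltbp4, Bgn, Thbs1, Tgfb1 and Fn1 are lower at 5 months in both genotypes, while Ltbp2, Comp and Dcn are lowest in the 5-month KO heart alone.

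The promoters of genes that differed together with age can be set side by side. RefSeq promoter windows (GRCm38.p6, the assembly that mm10 names; 250 bases before to 50 after the start) were found for 21 of the 33 genes, 28 windows in all. Vcan, Bgn, Tgfb1 and Fmod, the 4 genes of smallest age p with a single window, are printed as examples of genes higher at 14 months, 5′ to 3′ on the gene's strand. Their positions are Vcan chr13:89742463-89742762 on the minus strand, Bgn chrX:73483351-73483650 on the plus strand, Tgfb1 chr7:25686752-25687051 on the plus strand and Fmod chr1:134037004-134037303 on the plus strand. Capitals mark every match to the motifs searched on both strands.
Vcan: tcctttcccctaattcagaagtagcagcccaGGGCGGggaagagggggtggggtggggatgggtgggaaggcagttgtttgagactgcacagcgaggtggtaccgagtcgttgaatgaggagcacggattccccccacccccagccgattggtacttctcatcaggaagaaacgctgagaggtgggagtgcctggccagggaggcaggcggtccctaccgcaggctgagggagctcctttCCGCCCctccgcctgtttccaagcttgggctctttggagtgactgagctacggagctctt
Bgn: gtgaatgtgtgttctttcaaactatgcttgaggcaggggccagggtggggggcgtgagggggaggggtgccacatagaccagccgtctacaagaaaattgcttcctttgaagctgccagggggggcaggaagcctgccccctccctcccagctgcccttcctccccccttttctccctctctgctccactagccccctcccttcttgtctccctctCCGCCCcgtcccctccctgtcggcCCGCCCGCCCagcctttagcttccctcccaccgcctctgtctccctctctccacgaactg
Tgfb1: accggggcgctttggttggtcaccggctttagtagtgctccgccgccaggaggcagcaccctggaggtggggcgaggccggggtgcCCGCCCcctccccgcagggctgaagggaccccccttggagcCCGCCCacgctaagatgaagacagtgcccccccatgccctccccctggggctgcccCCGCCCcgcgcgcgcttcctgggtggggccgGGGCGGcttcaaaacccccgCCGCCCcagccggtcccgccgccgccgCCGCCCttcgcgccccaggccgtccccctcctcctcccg
Fmod: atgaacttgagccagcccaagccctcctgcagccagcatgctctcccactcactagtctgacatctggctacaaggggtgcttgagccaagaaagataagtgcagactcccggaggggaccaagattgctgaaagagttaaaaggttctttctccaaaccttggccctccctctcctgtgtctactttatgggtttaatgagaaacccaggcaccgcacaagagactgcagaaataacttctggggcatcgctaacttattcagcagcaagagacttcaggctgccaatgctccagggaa
The motifs were the Sp1 GC box GGGCGG, the AP-1 site TGANTCA, the Smad element CAGACA, the TEAD element GGAATG, the TATA box TATAAA and the CArG box of serum response factor. Every match in these 4 windows was a GC box: 2 in Vcan, 3 in Bgn, of which 2 overlap, 6 in Tgfb1 and 0 in Fmod. Over all windows of the 33 genes, 17 of 28 held a GC box, against 35.7% of all 32851 mouse windows. The Smad element was in 9 (all windows 21%), the TATA box in 5 (13.6%), the TEAD element in 1 (14.7%), the AP-1 site in 0 (7.81%) and the CArG box in 0 (1.63%). The median GC content was 57.3% in the windows of the 33 genes and 52.7% in all windows. A match is a run of letters, not a measured site.

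Between the genotypes no matrix gene passed the test. With age as a term, limma called 0 of the 32 genes, as it called 0% of all genes tested (0 of 13823); limma-voom also called 0. At an unadjusted p under 0.05, 7 of the 32 were lower in KO, against 2.87% of all genes, and 0 were higher, against 3.21%. KO stood below WT in 28 of 32, against 53.9% of all genes, with a median of −0.25 log2, and −0.023 for all genes. Of the same-number pairs, KO was below WT in all 3 for 12 genes, against 14.6% of all genes. The numbers were not taken to pair the hearts, so this count depends on the numbering at 14 months. Comp alone had every KO library below every WT library, against 2.89% of all genes.

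The genes of smallest genotype p were Timp3, Sparc, Comp, Loxl2 and Cilp. Timp3 averaged 4756 (SD 1481) in KO and 6108 (SD 1051) in WT, a difference of −0.40 log2 (SE 0.13, limma adjusted p = 0.745). Sparc averaged 3599 (SD 1225) in KO and 4913 (SD 751) in WT, a difference of −0.50 log2 (SE 0.16, limma adjusted p = 0.745). Comp had signals of 166, 181 and 72.3 in KO-1, KO-2 and KO-3 and 209, 224 and 188 in WT-1, WT-2 and WT-3, a difference of −0.66 log2 (SE 0.23, limma adjusted p = 0.745). It was lower in KO at both ages, and the gap was widest at 5 months. Loxl2 was at −0.34 log2 (SE 0.12, limma adjusted p = 0.745), with −0.39 at 14 months and −0.26 in the 5-month pair. Cilp had 169, 134 and 68.2 in KO-1, KO-2 and KO-3 and 177, 214 and 118 in WT-1, WT-2 and WT-3, a difference of −0.51 log2 (SE 0.19, limma adjusted p = 0.745). Fn1 was at −0.28 log2 (SE 0.11, limma adjusted p = 0.745), with −0.26 at 14 months and −0.31 in the 5-month pair. It was singled out after its values were seen. Above WT stood Tgfb3 (0.17), Mmp14 (0.063), Tgfb2 (0.058) and Eln (0.032), none past the test, and leaving out WT-2 or KO-1 turned the sign of Mmp14.

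At 14 months KO and WT hearts were close, and at 5 months most matrix genes had the lower signal in the KO heart. At 14 months the median of the 32 genes was −0.057 log2 (all genes −0.0048), with 20 of 32 lower in KO, against 51.1% of all genes. Both KO libraries lay below both WT libraries in 8 genes, against 17.9% of all genes, and above them in 6, against 17.2%. The count above was near the share of all genes and the count below was somewhat over it. In the single pair at 5 months the median was −0.63 log2 (all genes −0.059), and KO was lower in 30 of 32, against 54.1% of all genes. KO was lower there by 1.5-fold or more in 18 genes, against 15.3% of all genes, and higher by as much in 0, against 14.8%. These 5-month values come from 1 library a genotype and have no replicate check. Over all genes the quartiles of KO minus WT were −0.41 and 0.33 log2 at 5 months, and −0.13 and 0.13 at 14 months. Scaling to the nuclear total moved the 5-month median of all genes by 0.28 log2; the matrix genes then stood at −0.35 (−0.57 relative to all genes), with 23 lower in KO and 5 by 1.5-fold or more (all genes 6.71%).

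**Figure D4:**
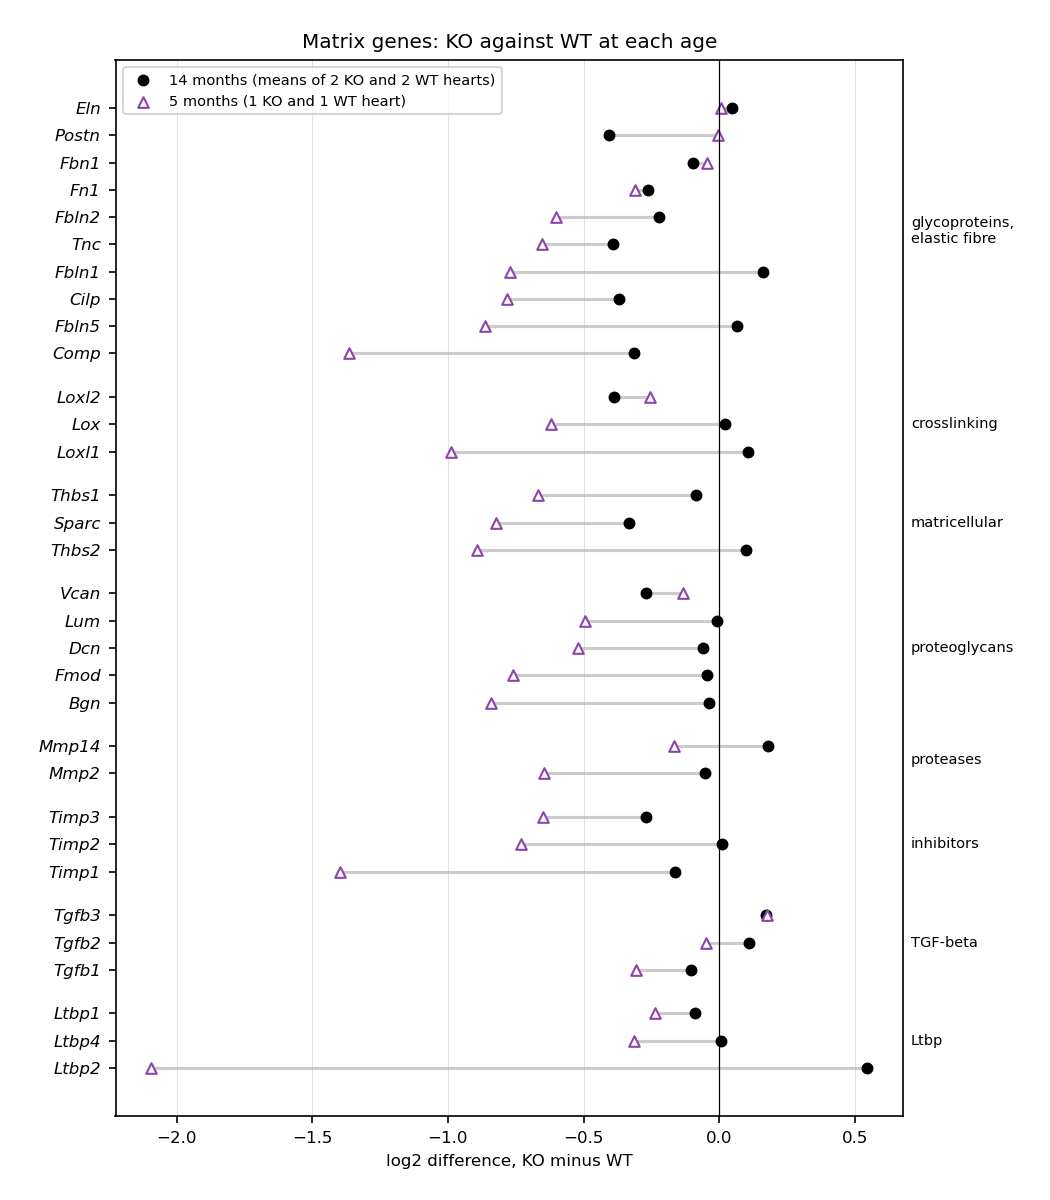
Log2 difference, KO minus WT, of the 32 matrix genes tested at 14 months (black, means of 2 hearts each) and at 5 months (open triangles, 1 heart each), joined by a grey line. The black points lie between −0.41 and 0.54, while the triangles reach from −2.09 to 0.18.

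At 5 months the matrix genes did not all stand apart by genotype. The KO signal was 22.8% of the WT signal for Ltbp2, 36.5% for Timp1 and 38.5% for Comp. Loxl1 stood at 50.2%, Thbs2 at 53.7%, Fbln5 at 54.9%, Bgn at 55.8% and Sparc at 56.5%. At the other end, Eln was at 100.4%, Postn at 99.6%, Fbn1 at 96.8%, Tgfb2 at 96.7% and Tgfb3 at 113%. The fibrillin and elastin genes of the elastic fibre were thus close in this pair, whereas the elastin-binding Fbln5 and the elastin crosslinker Loxl1 were not. Postn was apart at the other age, with 1081 and 906 in KO against 1242 and 1387 in WT at 14 months and 823 in KO against 826 in WT at 5 months. The genes of this paragraph other than Ltbp2, Timp1 and Comp were picked after their values were seen.

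The difference of the genotype differences, 14 minus 5 months, was tested with 2 residual degrees of freedom. It was above 0 in 27 of 32 genes (all genes 53.4%), and limma called 2, Ltbp2 and Loxl1, against 1.19% of all genes in that direction; 0 were called in the other direction, against 0.883%. Both KO libraries of 14 months lay above both WT libraries, with KO below WT at 5 months, in 5 genes, against 8.7% of all genes. The opposite pattern was in 0, against 7.72%. Neither count is separate from those of each age, as 30 of the 32 genes were lower in KO at 5 months. For Ltbp2 the difference was 2.64 log2 (SE 0.38, limma adjusted p = 0.0304), KO being 0.54 log2 from WT at 14 months and −2.09 at 5 months. For Loxl1 it was 1.09 log2 (SE 0.20, limma adjusted p = 0.0478), with 0.10 and −0.99. Both calls were lost without the trend and robust options of the model (adjusted p = 0.151 and 0.180 by limma) and without either 14-month WT library. Over all alternatives the limma adjusted p was 0.0281 to 0.151 for Ltbp2 and 0.0436 to 0.180 for Loxl1. Both calls rest on 1 heart of each genotype at 5 months.

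Genes that work with these were read from further lists, by how many passed the same age test, higher and lower at 14 months, beside the 17.7% and 16% of all genes tested. Of the receptors, Smad proteins and targets of TGF-beta, 10 of 21 were higher and 0 lower (median 0.58 log2), led by the Smad corepressor Ski at 1.25 (SE 0.11), the endothelial co-receptor Eng at 1.28 (SE 0.15), the receptor Tgfbr2 at 0.99 (SE 0.14) and the signal carrier Smad3 at 0.66 (SE 0.14). Fibrillar and associated collagens were higher in 12 of 13 (median 0.85), with Col6a2 at 1.52 (SE 0.19) and Col1a1 at 1.32 (SE 0.18). Basement membrane genes were higher in 7 of 12 (median 0.87), with Col15a1 at 2.06 (SE 0.23), nidogen Nid1 at 1.52 (SE 0.16) and Col4a1 at 1.43 (SE 0.13). Of other proteoglycan and hyaluronan genes 7 of 20 were higher and none was lower by limma, led by Prelp, another small leucine-rich proteoglycan, at 2.31 (SE 0.23) and the perlecan gene Hspg2 at 1.02 (SE 0.13).

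Other proteases, inhibitors and processing enzymes were higher in 13 of 34 and lower in 1. The lower gene was Timp4, a Timp known for its expression in heart, which averaged 440.2 at 14 months and 1315 at 5 months, −1.60 (SE 0.18), opposite in direction to Timp2 and Timp3. The membrane protease Mmp15 was at 1.24 (SE 0.13) and the aggrecanase Adamts4 at 2.29 (SE 0.43). Other matricellular genes were higher in 4 of 17, among them Aebp1 at 1.78 (SE 0.25) and Ccn1 at 1.25 (SE 0.16), a count near the share of all genes. Other elastic fibre genes were higher in 3 of 13, with Emilin2 at 0.87 (SE 0.21), also near the share of all genes, and lower in 1, the microfibril gene Mfap5 at −0.53 (SE 0.16). Integrin and other matrix receptors were higher in 6 of 16, with the fibronectin receptor Itga5 at 1.09 (SE 0.12), and lower in 1, the shared beta chain Itgb1 at −0.57 (SE 0.12). Between the genotypes 0 genes of these 8 lists were called by limma. At 5 months the collagen list had a median of −0.76 log2, KO minus WT, and the TGF-beta pathway list 0.022; at 14 months they stood at −0.13 and 0.026.

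Some lists of cell type markers had lower sums at 5 months in both genotypes, as the matrix genes did, and others did not. Fibroblast markers, 13 of 13 tested, summed to 24939 and 22439.7 in KO and 21775 and 25493 in WT at 14 months, and to 10282 in KO and 19687 in WT at 5 months. Most of that sum was gelsolin (Gsn). It had 18639 and 17388 in KO and 16118 and 19485 in WT at 14 months, against 5467 in KO-3 and 13135 in WT-3. Gsn was lower in WT-3 by more than the whole sum was, so the lower WT sum at 5 months rested on Gsn. Among the other markers, Dpt and Dpep1 were highest in WT-3, while Thy1 and Cd248 were lower at 5 months in both genotypes. By age, 4 of the 13 were higher at 14 months and 2 lower (Mfap5 and Dpt), the count of lower ones near the 16% of all genes and that of higher ones above their 17.7%, while the fibroblast identity genes Tcf21 (−0.33 log2) and Pdgfra (0.51) were not called. In the 5-month pair 12 of 13 were lower in KO, against 54.1% of all genes, at a median of −0.83 log2. Activated fibroblast markers (7 of 8 tested, 4 of the list among the 33 genes) summed to 3900.4 to 5515 at 14 months and to 2043 in KO and 4051 in WT at 5 months. The WT sum at 5 months thus lay within the range of 14 months. A large part of it was Acta2, also on the smooth muscle list, at 1751 to 3082 at 14 months and 739 in KO and 2512 in WT at 5 months. Smooth muscle and pericyte markers (10 of 10 tested) summed to 22711 to 25920.2 at 14 months and to 15518 in KO and 20666 in WT at 5 months. Most of this sum was Rgs5 and Abcc9. By age 4 of the 10 were higher at 14 months, against 17.7% of all genes: Pdgfrb, Notch3, Abcc9 and Cspg4. Rgs5, Acta2, Myh11, Tagln, Cnn1 and Kcnj8 were not called. Valve, tendon and cartilage markers (7 of 8 tested) summed to 1043 to 1319.5 at 14 months and to 546 in KO and 855 in WT at 5 months. Of these, 3 were higher at 14 months by limma, against 17.7% of all genes: Chad (2.43 log2), Prg4 (1.42) and Wif1 (1.24). The tendon genes Scx (−0.72, not called) and Tnmd (at most 1.79 in any library) did not pass the test or the minimum.

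Endothelial markers (9 of 9 tested) summed to 19796 to 24915 at 14 months and to 21602 in KO and 22989 in WT at 5 months. By age 4 were higher at 14 months, against 17.7% of all genes: Cdh5 (1.35 log2), Kdr (0.97), Emcn (0.77) and Tie1 (0.46). Lower were 2, near the 16% of all genes: Egfl7 (−0.79) and the fatty acid binding protein gene Fabp4 (−0.64). Without Fabp4, the most abundant of them and left out after its values were seen, the sums were 13687 to 17631 at 14 months and 10479.7 in KO and 12400.5 in WT at 5 months, lowest in the 5-month KO heart as for the matrix genes. Macrophage markers (10 of 10 tested) summed to 4018 to 5573 at 14 months and to 3691 in KO and 5183 in WT at 5 months. Cardiomyocyte markers (8 of 8 tested), the defining genes of this tissue, were abundant in every library, at 614249 to 714177 at 14 months and 746343 in KO and 1189770.0 in WT at 5 months. Their highest sum was therefore in the 5-month WT heart, and both 5-month sums lay above those of 14 months. By age 4 of the 8 were lower at 14 months, against 16% of all genes, at a list median of −0.71 log2. These were Tnni3 (−1.11 log2), Tnnt2 (−0.99), Myl2 (−0.93) and Ttn (−0.89). The gene called higher was Ryr2 (0.49), 1 of the 8, against 17.7% of all genes. Epicardial and mesothelial markers (7 of 8 tested) summed to 372 to 638 at 14 months and 194 in KO and 115 in WT at 5 months. Adipocyte markers (6 of 7 tested) summed to 1641 and 2352 in KO and 695 and 605 in WT at 14 months, and to 677 in KO and 1204 in WT at 5 months. Like Ltbp2 and Loxl1, their sum was higher in KO at 14 months and lower in KO at 5 months. For the interaction limma called 2 of the 6, against 1.19% of all genes in that direction. Such calls were not particular to adipocyte markers. In the same direction were 2 of the 8 cardiomyocyte markers, Actc1 (1.62 log2) and Myh6 (1.26), and the fibroblast marker Gsn (1.29). Of the 12 basement membrane genes 4 were called, Lamc1 (1.23) and Lama4 (1.13) in that direction and Lama5 (−1.47) and Nid2 (−1.35) in the other, against 0.883% of all genes. Blood cell markers (5 of 7 tested) summed to 10261 and 19406 in KO and 66929.8 and 6789 in WT at 14 months, and to 2729.5 in KO and 13775 in WT at 5 months. No marker of these 10 lists was at 0 in every library. The part of cell type content, of mitochondrial share and of Y-linked signal in the matrix results was not tested. The fit without the replicate 2 libraries left no replicate within an age and genotype, so its calls are no check on these. The median age difference of the 32 genes was 0.96 log2 in that fit.

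**Figure D5:**
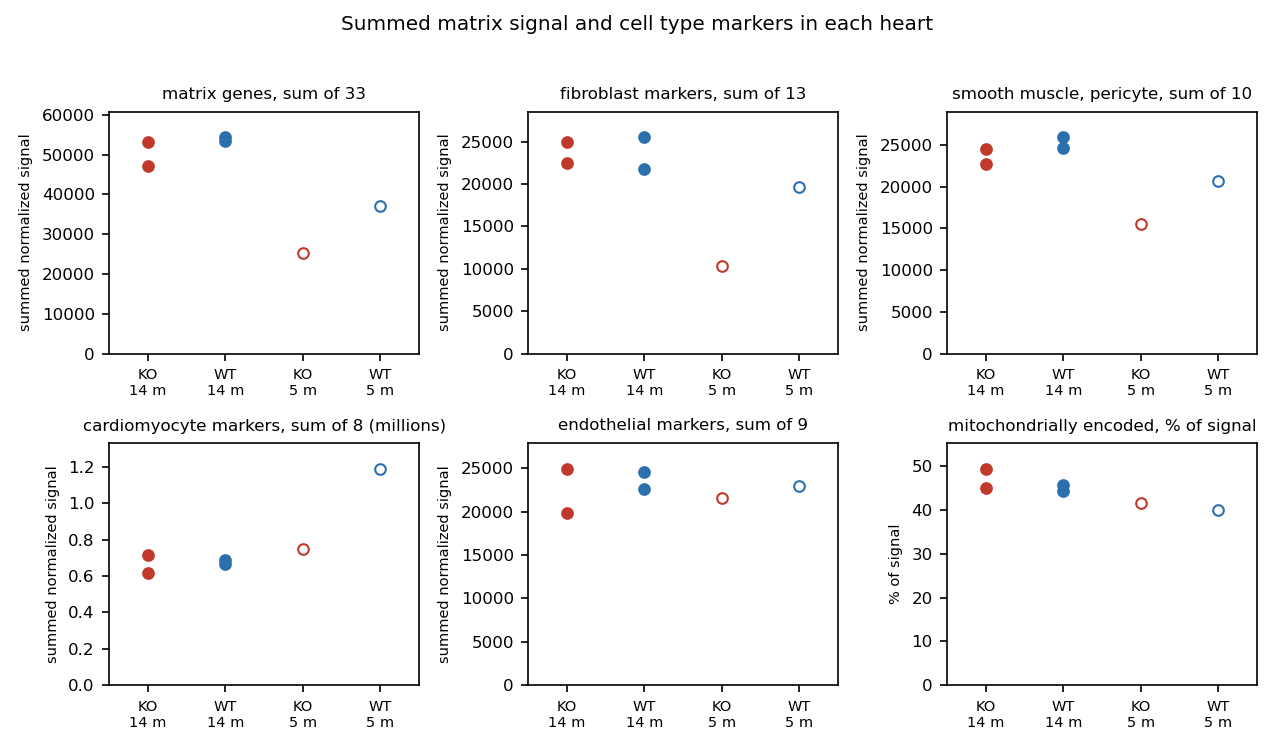
Summed normalized signal (axes from 0) of the 33 matrix genes and of 4 cell type marker lists, and the percentage of signal from mitochondrially encoded genes, in KO and WT hearts at 14 months (m; 2 each) and 5 months (1 each). Matrix, fibroblast and smooth muscle sums are lowest in the 5-month KO heart, while the cardiomyocyte sum is highest in the 5-month WT heart.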

How the data were processed

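RNA of 6 mouse hearts (Trizol extraction, Illumina libraries from 1 ug of total RNA, per the labels' protocols) was quantified with Salmon 1.5.2 against mm10, per the submitters' processing notes; the sources used here do not give the normalization. Per gene, the authors deposited a normalized signal with decimals, not read counts: 98.0 to 98.4% of values above 0 lay more than 0.01 from a whole number, and each library's median ratio to the geometric mean over libraries was 1.00 to 1.01. Depth in reads is therefore unknown and no counting intervals are given. Of 20254 genes, 20146 were matched to GENCODE M21 (GRCm38) and 108 were not; 108 broken lines without values were left out. No library was a copy of another: in any pair, 5.22% of genes or fewer had values within 1%.

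limma 3.58.1 in R 4.3.3 was fitted to log2(value + 1), with trend and robust variance, for 13823 genes (6431 below the minimum), on genotype and age (3 residual degrees of freedom) and with their interaction; the method was tested on simulated data. Alternatives changed the pseudocount, filter, normalization, variance model, covariates, libraries and replicate block. The 33 genes and all lists were chosen with earlier results of these data known. Signals in every library are printed for the 12 called genes of smallest p, the 6 of highest signal, the 5 of smallest genotype p and the 3 with the largest difference at 5 months, and up to 4 called genes are named from each other list.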

Additional observations from a re-analysis of the deposited data

Results flagged for a closer look

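For 5 matrix genes both 14-month KO libraries lay above both 14-month WT libraries while the 5-month KO heart lay below the 5-month WT heart, against 8.7% of all genes tested. This count is not separate from those of each age. Its 14-month part was met by 6 of the 32 genes, near the 17.2% of all genes, and its 5-month part by 30 of the 32. The difference between the ages in KO minus WT was 2.64 log2 for Ltbp2 (limma adjusted p = 0.0304) and 1.09 for Loxl1 (limma adjusted p = 0.0478). It was 0.99 for Thbs2 (limma adjusted p = 0.0573), 0.35 for Mmp14 (limma adjusted p = 0.465) and 0.16 for Tgfb2 (limma adjusted p = 0.755), none of these 3 past the test. At 14 months the KO signals of Ltbp2 were 144 and 156 and the WT signals 89.1 and 118. The 5-month side of every one of these rests on 1 KO and 1 WT heart.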

How the results depend on the processing

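The median of the matrix genes was higher at 14 months in every alternative run. Between 20 and 27 of the 32 genes were called by age, and 18 to 25 when 1 library was left out, fewest without KO-3. Bgn, Fbln1, Fbln2, Fbln5, Fbn1, Fmod, Fn1, Loxl1, Loxl2, Ltbp4, Mmp14, Tgfb1, Tgfb2, Timp2 and Vcan were called in all 17 fits. The median by age ran from 0.63 to 1.18 log2 when 1 library was left out. The fit with replicates 1 and 3 alone left no replicate within an age and genotype, so its calls carry little weight. Over all genes 4663 were called by age, 3246 to 4533 with 1 library left out and 3011 with replicates 1 and 3 alone. The sign of the age difference of Dcn (−0.14) and Ltbp2 (−0.12) turned without KO-3, within leave-one-out ranges of −0.14 to 0.32 and −0.12 to 2.51; the cause was not tested. No alternative called a matrix gene between the genotypes. Over all genes the count was 0 to 5 with 1 library left out, 14 in the 14-month libraries alone and 39 with replicates 1 and 3 alone. The median of the 32 genes was −0.34 to −0.057 with 1 library left out and −0.057 at 14 months alone, and scaling to the nuclear total gave −0.14, or −0.22 relative to all genes. Among the 19 genes named by the rule and tested, genotype differences that turned sign were Ltbp4 (0.0065 at 14 months alone or without WT-3 or KO-3, 0.0053 scaled to the nuclear total), Fbn1 (0.026, nuclear total), Timp2 (0.0092 at 14 months alone or without WT-3 or KO-3) and Ltbp2 (0.54 in the same 3 fits), and in those fits so did Loxl1 (0.10), Fbln1 (0.16), Fbln5 (0.067), Thbs2 (0.10) and Lox (0.022) of the other 13. Thbs1 turned without WT-1 (0.027), and Mmp14 without WT-2 (−0.014) or KO-1 (−0.022); the cause was not tested. Leave-one-out ranges were −0.23 to 0.0065 for Ltbp4, −0.35 to 0.0092 for Timp2, −0.70 to 0.54 for Ltbp2, −0.70 to 0.027 for Thbs1 and −0.022 to 0.18 for Mmp14. The interaction was the least stable result. It called 287 genes of all, but 4 without a filter, 12 after quantile normalization, 7 without trend and robust variance, 148 by limma-voom, 750 scaled to the nuclear total and 13 to 234 with a 14-month library left out. Of the 32 matrix genes it called 2, 0 to 1 with a library left out, 1 with a pseudocount of 10 or the nuclear total, and 0 without a filter, after quantile normalization, without trend and robust variance and by limma-voom. It could not be fitted without a 5-month library. With the replicate block the genotype fit called 0 genes of all and 0 matrix genes, and the median stayed at −0.25. Deviations of same-number libraries from the genotype means correlated at 0.390, 0.383 and 0.617, but the shared ages lie in these, and with age removed the 14-month value was 0.0147, so the numbers were not taken to pair the hearts. Signals under about 10, as for Cthrc1 and Tnc at 5 months, limit those genes.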
